A study of Homo sapiens with 18 samples.

Results

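The machinery that copies DNA was followed here through 48 genes, chosen by symbol as subunits of the origin, helicase, polymerase, clamp and fork complexes. All 48 were found among the 62749 genes of the count table, each as 1 gene identifier, together with 545 transcripts, and all 48 passed the filter on low counts that left 19252 genes. Messenger RNA had been sequenced from MDA-MB-231, a human breast cancer cell line without oestrogen and progesterone receptors, in 18 libraries, 3 for each of 6 groups. These were IMPDH2 knockout cells grown with 400 µM guanosine (KO + guanosine), knockout cells given back IMPDH2 (KO + IMPDH2), knockout cells given back Nuclear-IMPDH2, labelled NLS (KO + nuclear IMPDH2), or Cyt-IMPDH2, labelled NES (KO + cytosolic IMPDH2), knockout cells without guanosine (KO), and unedited cells (WT). Every group except WT carries the knockout. IMPDH2, inosine monophosphate dehydrogenase, catalyses the committed step towards GTP, and salvage of guanosine is another route to the same pool. The labels do not say whether the knockout is 1 clone, so the knockout and the history of its clone cannot be told apart. Nor do they tie the libraries of a group to separate cultures, and the p-values then reflect only the variation among these libraries, which may be technical.

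DNA replication starts in G1 phase, when the origin recognition complex, CDC6 and CDT1 load the MCM ring, the core of the replicative helicase, onto DNA, while geminin blocks further loading once S phase has begun. The kinase CDC7 with DBF4 then triggers joining of CDC45 and the GINS complex to the ring, polymerase alpha-primase lays primers, and polymerases epsilon and delta extend them on the PCNA clamp that replication factor C loads. Many of these genes are transcribed in a burst before and during S phase under E2F transcription factors, so that their messenger RNA level in a culture is known to follow the share of cycling cells. In bulk RNA a smaller share of cycling cells and less RNA per cell cannot be told apart.

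Library depth was 45865079 to 63276484 estimated counts. IMPDH2 itself averaged 41.6 ± 0.566 CPM in KO and 318.8 ± 0.557 CPM in WT (SD, n = 3 each; CPM is the count scaled to a common library size with TMM factors), and it stood at 22.1 CPM with guanosine and at 532.2, 297.4 and 378.7 CPM with the unlocalised, nuclear and cytosolic enzyme. Of the line's 4 high markers, vimentin (VIM) averaged 3411 to 4765 CPM over the 6 groups, CD44 627.2 to 860.9, AXL 419.0 to 791.7 and CAV1 163.2 to 348.9 CPM, and each had its highest mean in WT. Of the 6 markers held to be low, ESR1, PGR and CDH1 reached no more than 0.28 CPM in any library, while GATA3 averaged 4.86 to 8.85, EPCAM 8.29 to 9.14 and ERBB2 69.4 to 83.3 CPM. Of 6 blood and endothelial markers, PECAM1 was the most abundant, at 3.19 to 11.1 CPM. Mitochondrial transcripts took 7.72% of counts in KO, 7.41% to 7.82% in the other knockout-derived groups and 5.18% in WT, and their part in the results below was not tested.

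Loss of IMPDH2 came with lower messenger RNA for most of the replication machinery. The 48 genes together took 0.311% ± 0.00646 of all counts in KO and 0.372% ± 0.00178 in WT (SD, n = 3 each), and the KO and WT ranges did not overlap. Calls were made with edgeR's quasi-likelihood test, at a threshold of 0.05 on the p adjusted by Benjamini-Hochberg over all 19252 genes. By that rule 36 of the 48 were lower and 7 higher in KO than in WT, while 5 were not called. The background over all tested genes was 36.8% lower and 35.9% higher, and over coding genes 44.8% lower and 35.4% higher. The median log2 fold change was -0.41 over the 48, against 0.01 over all genes and -0.07 over coding genes. The changes were mostly under 2-fold: only ORC1 and MCM4 fell by more. Scaling by library totals in place of TMM moved the median of all genes by 0.161 in this comparison, and the split of the 48 was then 28 lower and 12 higher, beside 28.5% lower and 45.5% higher over all genes.

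**Figure D1:**
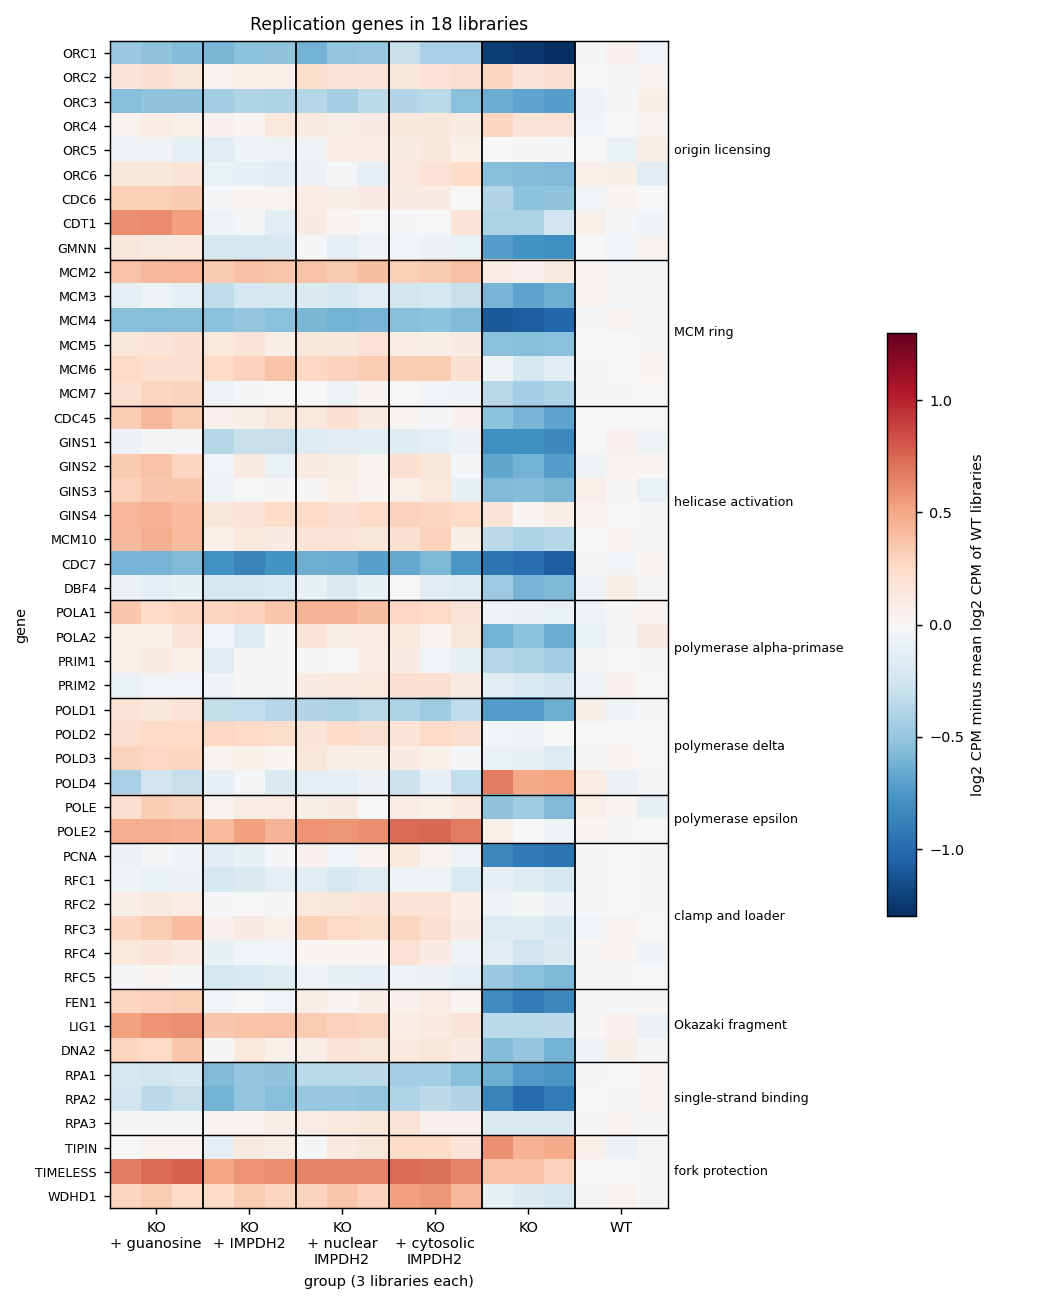
Level of each of the 48 replication genes (rows, grouped by complex) in each of the 18 libraries (columns, grouped by condition), as log2 CPM minus the mean log2 CPM of the 3 WT libraries. The KO columns are blue for most rows, and in most of these the 4 groups given guanosine or IMPDH2 return towards or past the WT level. Rows such as ORC1, ORC3, MCM4, CDC7, RPA1 and RPA2 return only part of the way and stay below WT.

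Guanosine, and each form of IMPDH2, came with higher levels of most of these genes than in KO. With guanosine 43 of 48 were higher and 3 lower, with a median log2 fold change of 0.50, where 27.3% of all genes were higher and 29.2% lower. With unlocalised IMPDH2 41 were higher and 4 lower at a median of 0.36, beside 25.7% and 25.1% of all genes. Nuclear IMPDH2 gave 42 higher and 3 lower at a median of 0.44 (26.1% and 26.9% of all genes). Cytosolic IMPDH2 gave 42 higher and 2 lower at a median of 0.41 (24.6% and 26.0% of all genes). Over coding genes the shares were 34.2% higher and 30.7% lower with guanosine and 33.2% and 26.2% with unlocalised IMPDH2. They were 33.6% and 27.9% with nuclear and 31.4% and 28.4% with cytosolic IMPDH2. The comparisons with KO share its 3 libraries, so their likeness is not independent evidence. The share of all counts on the 48 genes was 0.43% ± 0.00555 with guanosine, 0.38% ± 0.00743 with unlocalised, 0.395% ± 0.00226 with nuclear and 0.394% ± 0.00485 with cytosolic IMPDH2. Guanosine therefore gave the highest share of the 6 groups, and its 3 libraries lay above those of every other group. KO had the lowest mean of the 6 groups for 39 of the 48 genes (81.2%), where it was lowest for 24.5% of all tested genes. Guanosine gave the highest mean for 21 (43.8%, against 14.6% of all tested genes), WT for 11, cytosolic IMPDH2 for 6, nuclear IMPDH2 for 4, KO for 4 and unlocalised IMPDH2 for 2. The 4 genes highest in KO were ORC2, ORC4, POLD4 and TIPIN.

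The promoters of several members are printed here because they carry, or lack, the short element through which E2F factors are known to act. These are examples and do not stand for all members. Of the 48 genes, 41 had an entry among the RefSeq promoters (GRCh38.p14), each 300 bases long with 250 before and 50 after the start. The 150 bases just before the start follow, 5′ to 3′ on the gene's strand, with the E2F-type element in capitals where it occurs. The first 4 hold it and the last 3 do not. The stretches lie at chr20:5126623-5126772 (minus strand), chr16:88803639-88803788 (plus strand), chr16:85688955-85689104 (minus strand), chr19:48170345-48170494 (minus strand), chr11:61792761-61792910 (plus strand), chr11:67353597-67353746 (minus strand) and chr15:66386718-66386867 (minus strand).
PCNA: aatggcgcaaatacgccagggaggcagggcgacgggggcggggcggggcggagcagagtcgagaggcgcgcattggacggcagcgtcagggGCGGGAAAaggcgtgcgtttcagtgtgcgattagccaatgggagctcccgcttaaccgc
CDT1: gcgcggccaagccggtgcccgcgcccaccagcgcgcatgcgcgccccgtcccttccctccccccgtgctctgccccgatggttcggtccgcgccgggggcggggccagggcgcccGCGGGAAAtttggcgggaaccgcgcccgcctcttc
GINS2: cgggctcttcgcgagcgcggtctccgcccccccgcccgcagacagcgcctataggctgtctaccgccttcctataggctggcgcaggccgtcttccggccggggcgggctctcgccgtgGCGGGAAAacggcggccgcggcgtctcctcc
LIG1: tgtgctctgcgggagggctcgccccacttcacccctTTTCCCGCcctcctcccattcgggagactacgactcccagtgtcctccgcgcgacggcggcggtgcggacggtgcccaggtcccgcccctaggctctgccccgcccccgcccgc
FEN1: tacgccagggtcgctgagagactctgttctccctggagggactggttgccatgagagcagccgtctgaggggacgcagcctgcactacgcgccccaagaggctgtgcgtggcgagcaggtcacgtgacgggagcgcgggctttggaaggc
POLD4: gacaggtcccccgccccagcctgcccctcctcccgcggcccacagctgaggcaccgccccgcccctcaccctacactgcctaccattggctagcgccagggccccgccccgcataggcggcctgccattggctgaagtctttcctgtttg
TIPIN: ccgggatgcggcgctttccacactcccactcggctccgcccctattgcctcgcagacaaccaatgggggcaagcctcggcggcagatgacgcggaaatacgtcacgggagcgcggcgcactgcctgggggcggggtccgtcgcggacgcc

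The element was searched as TTTCCCGC, TTTCGCGC, TTTGCCGC and TTTGGCGC on both strands, and matches on the 2 strands can overlap. It occurred in 17 of the 41 member promoters (41.5%), in 5.35% of 11242 promoters of tested genes with a coding transcript and in 3.33% of all 27305 promoters. The CCAAT box, searched as CCAAT on both strands, occurred in 56.1% of member promoters, 36.6% of those of tested coding genes and 35.7% of all. Members with the E2F-type element had a median log2 fold change of -0.48 in KO against WT and of 0.70 with guanosine against KO, and the 24 without it had -0.28 and 0.42. The ranges of both sets overlapped widely: FEN1, with no match in this window, had the highest value with guanosine, 1.14. A match is a description of letters and not a binding site. No entry was used for DNA2, RPA3, RPA2, POLD3, MCM4, MCM5 and GINS4.

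At the origin, the loading factors fell and the core subunits split. ORC1, an ATPase subunit of the origin recognition complex, was at 15.1, 14.7 and 13.8 CPM in KO, against 34.6, 36.6 and 34.3 CPM in WT. That made it 2.42-fold lower (log2 fold change -1.28, SE 0.0467, adjusted p = 2.83e-14), with no overlap between the groups. Geminin (GMNN), the inhibitor of CDT1, was at 48.3, 46.2 and 45.7 CPM in KO and at 79, 77.3 and 81.8 CPM in WT (log2 fold change -0.76, SE 0.0297, adjusted p = 6.58e-14). ORC6, ORC3, CDC6, which recruits the ring together with CDT1, and CDT1 itself also fell, with log2 fold changes of -0.56, -0.68, -0.48 and -0.35. ORC2 and ORC4, core subunits present through the cell cycle, went the other way. ORC2 was at 38, 35.1 and 36 CPM in KO and 31.3, 30.9 and 31.8 CPM in WT, and ORC4 at 52.8, 48.9 and 49.1 CPM in KO and 42.6, 43.3 and 44.8 CPM in WT, each with a log2 fold change of 0.21 (adjusted p = 1.36e-05 and 3.37e-05). ORC5 was not called: its KO libraries lay within the WT range of 21.6, 20.2 and 22.8 CPM (log2 fold change -0.01, 95% interval -0.11 to 0.10).

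Guanosine moved CDT1 most within this group. CDT1 was at 62.2, 62.7 and 59.3 CPM with guanosine, against 30.8, 30.9 and 34.2 CPM in KO (log2 fold change 0.94, SE 0.0545, adjusted p = 7.55e-11). Every guanosine library therefore stood above every other library of the study, since WT reached 42.7, 40.2 and 39.7 CPM. Geminin was 1.86-fold higher with guanosine than in KO, at 87.9, 86.2 and 86.8 CPM, so the loader and its inhibitor were raised together. ORC1 averaged 24.5 ± 0.645 CPM with guanosine, 24 ± 0.645, 24.3 ± 1.09 and 27 ± 1.27 CPM with unlocalised, nuclear and cytosolic IMPDH2, 14.5 ± 0.646 CPM in KO and 35.2 ± 1.29 CPM in WT (SD, n = 3 each). All 4 treated groups lay between KO and WT with no overlap on either side. ORC4 was lower than in KO with guanosine (log2 fold change -0.14, adjusted p = 0.0029), unlocalised and nuclear IMPDH2 (-0.13 and -0.10), and was not called with cytosolic IMPDH2 (-0.07, adjusted p = 0.0974). ORC2 and ORC5 were not called with guanosine (-0.04 and -0.06).

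**Figure D2:**
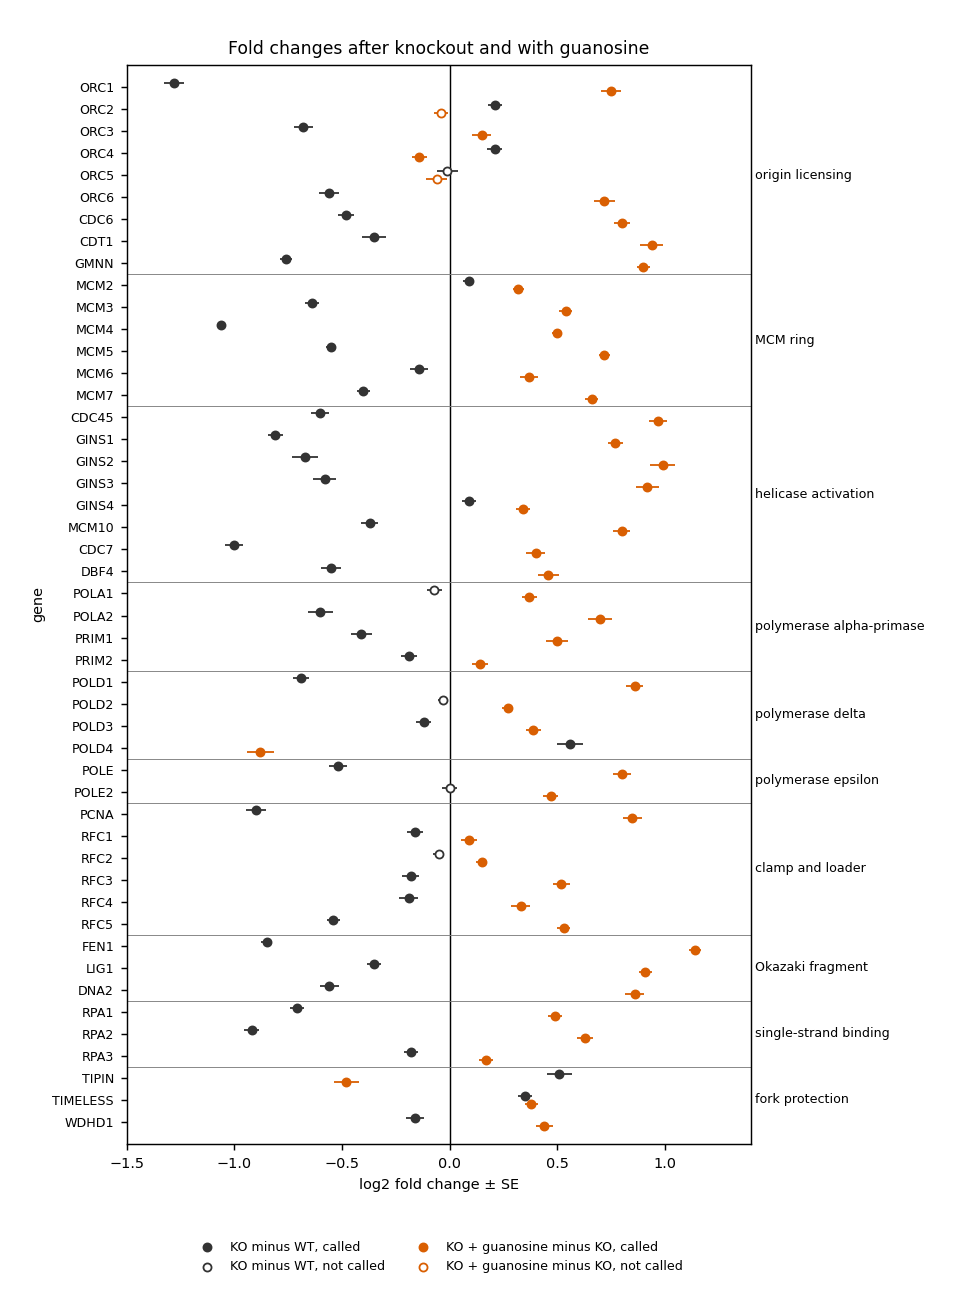
Log2 fold change ± SE of each replication gene in KO minus WT (dark) and in KO + guanosine minus KO (orange), from edgeR's quasi-likelihood fit of 18 libraries, 3 per group. Filled points passed an adjusted p of 0.05 and open points did not. Most dark points lie left of 0 and most orange points right of it. Among points called in both, POLD4, TIPIN and ORC4 show the opposite, and TIMELESS, MCM2 and GINS4 are right of 0 in both.

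The 6 subunits of the MCM ring assemble in equal number, yet their messages did not fall alike. MCM4 was at 93, 94.4 and 97.8 CPM in KO, against 196.4, 202.5 and 195.0 CPM in WT, and was 2.08-fold lower (log2 fold change -1.06, SE 0.0227, adjusted p = 2.62e-17). MCM3 was at 219.1, 207.3 and 213.5 CPM in KO and at 337.5, 329.6 and 329.7 CPM in WT (log2 fold change -0.64, SE 0.0314, adjusted p = 1.9e-12). MCM5, MCM7 and MCM6 fell by less, with log2 fold changes of -0.55, -0.40 and -0.14. MCM2 alone was called higher in KO, at 120.8, 117.8 and 122.5 CPM against 116.0, 111.7 and 112.1 CPM in WT (log2 fold change 0.09, adjusted p = 0.00526). The size was small, 1.06-fold, but the KO libraries all lay above the WT libraries. With guanosine all 6 were higher than in KO, by log2 fold changes of 0.32 (MCM2) to 0.72 (MCM5). MCM5 averaged 101.1 ± 1.45 CPM with guanosine and 61.5 ± 0.266 CPM in KO (SD, n = 3 each), a gap many times the spread of either group. MCM7 was at 308.1, 323.7 and 325.1 CPM with guanosine and at 207.4, 196.0 and 201.6 CPM in KO (log2 fold change 0.66, adjusted p = 2.3e-12). All 6 were also called higher than in KO with each form of IMPDH2, by 0.26 to 0.71.

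Levels of different subunits can be compared only per transcript length, and for that the authors' TPM values were summed per gene. In KO the most abundant ring message was MCM7 at 107.2 ± 0.762 TPM and the least abundant MCM5 at 34.8 ± 5.24 TPM (SD, n = 3). In WT they were MCM7 at 133.8 ± 2.8 TPM and MCM6 at 42.3 ± 1.4 TPM. The ratio of highest to lowest was 3.33 with guanosine, 2.61, 2.7 and 2.56 with unlocalised, nuclear and cytosolic IMPDH2, 3.22 in KO and 3.2 in WT. MCM4 ranked next after MCM7 and MCM3 in every group, close to both at 128.9 ± 6.21 TPM in WT, while it averaged 75.4 TPM with guanosine, 81.7, 66 and 68.1 TPM with the 3 forms of IMPDH2 and 48.9 TPM in KO. One KO library stood apart for MCM5, since the 3 KO values were 31.4, 40.8 and 32 TPM, although its counts did not (61.5, 61.2 and 61.7 CPM).

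**Figure D3:**
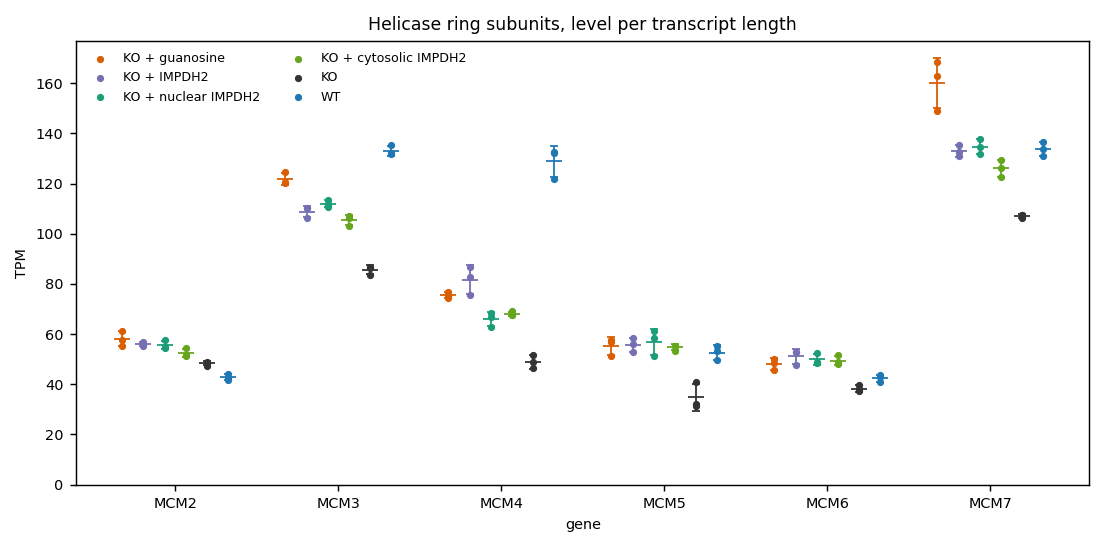
TPM of the 6 MCM ring genes in every library, with the group mean (dash) and SD (bar, n = 3), by group from KO + guanosine at the left to WT at the right of each gene. MCM7 has the highest mean in each group, with MCM3 and MCM4 close to it in WT, and the WT points of MCM4 stand clear above all other groups.

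Helicase activation held some of the larger falls. CDC7, the kinase that fires licensed origins, was at 30.6, 29.8 and 28 CPM in KO and at 59.5, 57.2 and 59.7 CPM in WT, 1.99-fold lower (SE 0.0421 on the log2 scale, adjusted p = 2.2e-13). DBF4, its activating subunit, fell by less (-0.55). Of the 4 GINS subunits, which form 1 complex, GINS1 was at 27.3, 27.3 and 26.6 CPM in KO and 47.7, 49.2 and 45.5 CPM in WT (log2 fold change -0.81, adjusted p = 2.22e-13), and GINS2 and GINS3 fell by 0.67 and 0.58 on the log2 scale. GINS4 was called slightly higher (log2 fold change 0.09, adjusted p = 0.0156), but its KO libraries, at 86.3, 78.1 and 81.9 CPM, overlapped the WT range of 78.7, 76.8 and 75.4 CPM. That call was lost without KO replicate 1 (0.06, adjusted p = 0.0878) and with an offset for transcript length (0.22, adjusted p = 0.0797). CDC45, which joins the ring with GINS, and MCM10, which is needed for DNA unwinding at origins, had log2 fold changes of -0.60 and -0.37.

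All 8 genes of helicase activation were higher with guanosine than in KO. GINS2 was at 23.6, 24.1 and 22.7 CPM with guanosine, against 11.7, 12.2 and 11.4 CPM in KO (log2 fold change 0.99, SE 0.0592, adjusted p = 1.12e-10). CDC45 was at 44.2, 47.7 and 44.7 CPM with guanosine, against 24.5, 23.4 and 22.1 CPM in KO (log2 fold change 0.97, adjusted p = 1.2e-12). Both therefore came close to a doubling, and both exceeded WT, where GINS2 was at 18, 19.1 and 19 CPM and CDC45 at 35.5, 35.5 and 35.5 CPM. With IMPDH2 given back in any form the same 8 were called higher than in KO, with median log2 fold changes of 0.48, 0.58 and 0.60 for the unlocalised, nuclear and cytosolic enzyme.

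Among the polymerases the catalytic and accessory subunits of 1 enzyme did not move together. In polymerase alpha-primase, which makes the RNA-DNA primer, POLA2 was at 15.2, 15.9 and 14.8 CPM in KO and 21.8, 23 and 24.9 CPM in WT (log2 fold change -0.60, adjusted p = 2.13e-08). PRIM1, the primase catalytic subunit, was at 21.8, 21.1 and 20.5 CPM in KO and 28.5, 28 and 27.9 CPM in WT (log2 fold change -0.41, adjusted p = 5.57e-07). POLA1, the polymerase subunit itself, was not called (log2 fold change -0.07, 95% interval -0.15 to 0.00). In polymerase epsilon, the leading-strand enzyme, the catalytic POLE was at 61.2, 63.5 and 59 CPM in KO and 91.7, 89.5 and 82.3 CPM in WT (log2 fold change -0.52, adjusted p = 1.96e-09). Its partner POLE2 had a log2 fold change of -0.00 (95% interval -0.08 to 0.07), with KO libraries at 35.3, 33.6 and 32.3 CPM and WT libraries at 34.3, 33.3 and 33.8 CPM. The POLE2 groups thus overlapped, while the POLE groups did not.

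Polymerase delta, the lagging-strand enzyme, held subunits that moved in opposite directions in KO. Its catalytic subunit POLD1 was at 43.8, 43.7 and 46.8 CPM in KO, against 76.6, 69.9 and 71.1 CPM in WT (log2 fold change -0.69, SE 0.039, adjusted p = 1.31e-11). Its smallest subunit POLD4, which is known to be degraded as a protein in S phase and after DNA damage, was at 42.7, 38 and 38.6 CPM in KO, against 28.9, 25.6 and 26.5 CPM in WT (log2 fold change 0.56, SE 0.062, adjusted p = 2.03e-07). POLD1 was therefore lower and POLD4 higher in every KO library than in any WT library. POLD3 fell slightly (-0.12) and POLD2 was not called (-0.03). With guanosine the order turned: POLD1 was at 81.7, 80.2 and 81.9 CPM and POLD4 at 20.2, 22.5 and 21.9 CPM, which made POLD1 1.81-fold higher and POLD4 1.84-fold lower than in KO (adjusted p = 2.73e-12 and 1.35e-09). POLD4 was also called lower than in KO when IMPDH2 was given back, with log2 fold changes of -0.66, -0.67 and -0.79 for the unlocalised, nuclear and cytosolic forms. Against KO, POLD1 had log2 fold changes of 0.36, 0.31 and 0.29 with the unlocalised, nuclear and cytosolic enzyme, beside 0.86 with guanosine. The difference between guanosine and the enzyme was not tested.

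Of the clamp and its loader, the clamp had the largest fall. PCNA, the sliding clamp that tethers the polymerases, was at 110.9, 105.0 and 102.8 CPM in KO, against 194.7, 198.8 and 200.5 CPM in WT (log2 fold change -0.90, SE 0.0449, adjusted p = 2.46e-12). The replication factor C subunits fell by much less, apart from RFC5 at 62.4, 60 and 58.2 CPM in KO and 88.1, 86.3 and 87.3 CPM in WT (log2 fold change -0.54, adjusted p = 9.07e-12). RFC4, RFC3 and RFC1, the large subunit, had log2 fold changes of -0.19, -0.18 and -0.16, and RFC2 was not called (-0.05, adjusted p = 0.0692). With guanosine PCNA was at 187.3, 194.5 and 191.8 CPM and was 1.8-fold higher than in KO (adjusted p = 2.28e-11). PCNA averaged 186.1 ± 8.49, 201.2 ± 6.77 and 202.8 ± 14.5 CPM with unlocalised, nuclear and cytosolic IMPDH2, so these libraries clustered around the WT level. Per transcript length, PCNA was 4.29 ± 0.228 times as abundant as RFC1 in KO and 6.77 ± 0.297 times in WT (SD, n = 3 each). RFC1 was nearly flat, called higher with guanosine (log2 fold change 0.09, adjusted p = 0.0471) and not called with the 3 forms of IMPDH2 (-0.02, -0.01 and 0.06).

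All 3 genes of Okazaki fragment maturation were lower in KO than in WT and higher with guanosine and with each form of IMPDH2 than in KO. FEN1, the nuclease that removes the RNA-DNA flap, was at 116.3, 108.8 and 113.6 CPM in KO, against 205.3, 199.3 and 204.9 CPM in WT (log2 fold change -0.85, SE 0.027, adjusted p = 4.1e-15). With guanosine it was at 246.3, 249.9 and 252.5 CPM, 2.21-fold higher than in KO (log2 fold change 1.14, SE 0.027, adjusted p = 5.3e-16), the only member that rose by more than 2-fold in that comparison. LIG1, the ligase that seals the fragments, was at 86.4, 90.5 and 90.6 CPM with guanosine, 47.2, 47.1 and 47.7 CPM in KO and 61, 62.4 and 57.3 CPM in WT (log2 fold change 0.91 with guanosine against KO and -0.35 in KO against WT). Each of its guanosine libraries thus stood above each WT library. DNA2, the nuclease and helicase that cuts long flaps, was 1.48-fold lower in KO than in WT and 1.81-fold higher with guanosine than in KO.

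The single-strand binding protein RPA fell in KO in its 3 subunits to unequal degrees. RPA2, the subunit that checkpoint kinases phosphorylate, was at 48, 43.6 and 46.7 CPM in KO, against 86.9, 86.1 and 89.5 CPM in WT (log2 fold change -0.92, SE 0.0349, adjusted p = 4.42e-14). RPA1, the main DNA-binding subunit, was at 141.5, 131.8 and 130.2 CPM in KO, against 216.6, 218.9 and 223.8 CPM in WT (log2 fold change -0.71, adjusted p = 6.61e-13). RPA3 moved little (-0.18). With guanosine RPA2 was at 73.5, 69.1 and 70.9 CPM and RPA1 at 188.8, 186.2 and 190.3 CPM, above KO by log2 fold changes of 0.63 and 0.49, and both stayed below each WT library.

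Fork protection was the only complex whose median was above 0 in KO against WT (0.35). TIPIN and TIMELESS bind each other and travel with the fork, where they couple the helicase to the polymerases. TIPIN was at 35.4, 31.9 and 32.6 CPM in KO, against 24.4, 22.1 and 23.7 CPM in WT (log2 fold change 0.51, SE 0.058, adjusted p = 2.93e-07). TIMELESS was at 91.4, 91.1 and 86.9 CPM in KO, against 70.9, 71.1 and 70 CPM in WT (log2 fold change 0.35, SE 0.0321, adjusted p = 1.76e-08). Both were therefore above WT without overlap, but they parted when guanosine was given. TIPIN was at 23.3, 24.2 and 24 CPM with guanosine, 1.4-fold lower than in KO (adjusted p = 1.21e-06), while TIMELESS was at 112.2, 118.1 and 120.2 CPM, 1.3-fold higher than in KO (adjusted p = 9.26e-09). The enzyme gave the same pattern of signs: TIPIN had log2 fold changes of -0.48, -0.42 and -0.29 and TIMELESS of 0.22, 0.30 and 0.36 against KO, all called. WDHD1, which links polymerase alpha to the helicase, fell slightly in KO (-0.16) and was higher with guanosine (0.44).

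Set against WT, the cells given guanosine or IMPDH2 did not simply return to the WT level gene by gene. With guanosine 28 of 48 were above and 8 below WT, at a median log2 fold change of 0.16 (31.1% and 32.9% of all genes). With unlocalised IMPDH2 12 were above and 14 below at a median of -0.01 (31.1% and 33.4% of all genes). Nuclear IMPDH2 left 22 above and 13 below at a median of 0.07 (31.5% and 33.6%), and cytosolic IMPDH2 21 above and 13 below at a median of 0.09 (32.9% and 34.7%). As shares of the 48, those above WT were 58.3% with guanosine, 25% with unlocalised, 45.8% with nuclear and 43.8% with cytosolic IMPDH2. Over coding genes 33.9%, 33.5%, 34.2% and 34.5% were above WT in the same order. The 12 above WT with unlocalised IMPDH2 ranged from 11 to 15 when 1 library was left out, so no difference from the background is read from them. These 4 comparisons share the 3 WT libraries. With library totals in place of TMM the splits were 22 above and 13 below for unlocalised, 30 and 9 for nuclear, and 29 and 9 for cytosolic IMPDH2. All genes then gave 37.6% above and 28.3% below for unlocalised, 37.8% and 28.6% for nuclear, and 38.1% and 30.5% for cytosolic IMPDH2.

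The members furthest above WT were TIMELESS, POLE2, CDT1, LIG1, POLA1 and WDHD1. TIMELESS averaged 116.8 ± 4.15 CPM with guanosine, 104.8 ± 3.41, 110.6 ± 0.133 and 115.0 ± 3.81 CPM with the unlocalised, nuclear and cytosolic enzyme and 70.7 ± 0.575 CPM in WT (SD, n = 3 each), a log2 fold change of 0.57 to 0.73. POLE2, level with WT in KO, was at 46.9, 46.7 and 46.1 CPM with guanosine, 45, 48.9 and 45.9 CPM with unlocalised, 50.6, 50.2 and 51.4 CPM with nuclear and 56.4, 56.7 and 54 CPM with cytosolic IMPDH2. Its level thus exceeded both KO and WT in each of these groups, and it was furthest above WT with cytosolic IMPDH2 (log2 fold change 0.72, adjusted p = 3.32e-12). CDT1 and LIG1 were above WT with guanosine by 0.59 and 0.57 on the log2 scale, POLA1 with nuclear IMPDH2 by 0.42 and WDHD1 with cytosolic IMPDH2 by 0.51. For CDT1 the values with unlocalised, nuclear and cytosolic IMPDH2 against WT were -0.06, 0.05 and 0.05, none of them called. MCM2 and MCM6 were above WT in all 4 groups, by 0.34 to 0.41 and by 0.23 to 0.31.

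CDC7, MCM4, ORC1, ORC3, RPA1 and RPA2 were the furthest below WT. CDC7 was at 38.7, 38.7 and 39.4 CPM with guanosine, 34.1, 32.3 and 34.4 CPM with unlocalised, 37.8, 37.5 and 36.1 CPM with nuclear and 37.2, 39.3 and 34.8 CPM with cytosolic IMPDH2, all under its lowest WT library. Its log2 fold change against WT was -0.59 with guanosine and -0.81 with unlocalised IMPDH2. MCM4 stood at -0.55, -0.53, -0.60 and -0.55 against WT in the 4 groups (guanosine, unlocalised, nuclear, cytosolic) and ORC3 at -0.54, -0.42, -0.38 and -0.42. RPA2 was at -0.56 with unlocalised, RPA1 at -0.48 with cytosolic and ORC1 at -0.54 with nuclear IMPDH2. Genes that lie beside these members, and beside MCM3, on the chromosome were low as well. In KO against WT, the median log2 fold change of the 50 nearest tested coding genes, members left out, was -0.70 around CDC7, -0.51 around RPA2 and -0.55 around ORC1 on chromosome 1, -0.63 around ORC3 and -0.44 around MCM3 on chromosome 6, -0.74 around MCM4 on chromosome 8 and -0.34 around RPA1 on chromosome 17. With nuclear IMPDH2 against WT the same medians were -0.61, -0.42, -0.46, -0.53, -0.29, -0.76 and -0.14. PRIM2 stood above its neighbours: around it, also on chromosome 6, the medians were -0.42 in KO and -0.29 with nuclear IMPDH2 against WT, beside -0.19 and 0.13 for PRIM2 itself. POLD1, on chromosome 19, also stayed below WT with IMPDH2, at -0.34, -0.38 and -0.40 with the unlocalised, nuclear and cytosolic enzyme. Its neighbour medians there were 0.00, -0.16 and -0.08. With guanosine POLD1 was at 0.16 against WT. The part of chromosomal position in these values was not tested. Subtracting each member's neighbour median moved the median of the 48 to -0.31 in KO against WT. PCNA and FEN1, by contrast, had neighbour medians of -0.09 and 0.17 beside their own -0.90 and -0.85.

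**Figure D4:**
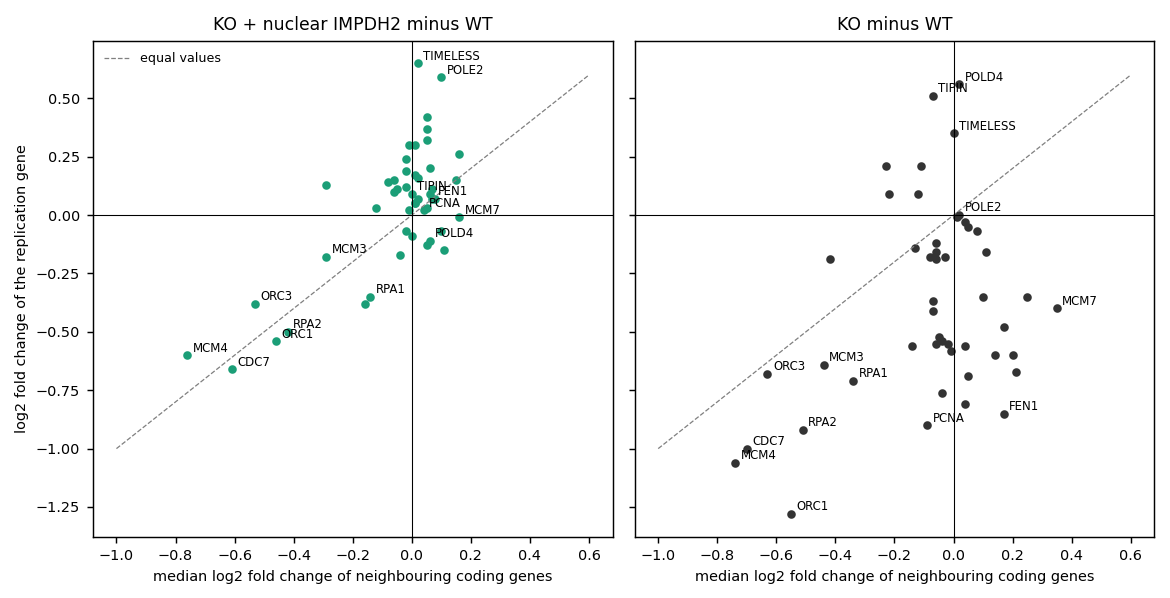
Log2 fold change of each of the 48 replication genes against the median log2 fold change of 37 to 50 neighbouring tested coding genes, for KO + nuclear IMPDH2 minus WT (left) and KO minus WT (right). The dashed line marks equal values. At the left CDC7, MCM4, ORC1 and RPA2, furthest below 0, lie near the dashed line, and RPA1 and POLD1 lie under it. At the right most members lie well under the line while their neighbours' medians are close to 0.

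Few replication genes were called between nuclear and cytosolic IMPDH2, and those differed by little. Nuclear against cytosolic IMPDH2 gave 5 higher and 5 lower of 48, or 10.4% each. Over all genes 13.4% were higher and 10.5% lower, and over coding genes 17.3% and 12.2%. The share of members lower was thus level with that of all genes, and the share higher was near it. Neither is read as a trait of the members. The largest values were a log2 fold change of -0.25 (ORC6) and 0.19 (POLA1). ORC6 was at 37, 38.6 and 36 CPM with nuclear and 42.5, 44.3 and 45.9 CPM with cytosolic IMPDH2 (adjusted p = 0.000677). POLA1 was at 51.9, 52 and 50 CPM with nuclear and 45.9, 45.7 and 43 CPM with cytosolic IMPDH2 (adjusted p = 0.000475). LIG1, at 75.6, 73.9 and 73.2 CPM with nuclear and 64.4, 65.6 and 67.8 CPM with cytosolic IMPDH2, was 1.13-fold higher (adjusted p = 0.000422), and WDHD1, at 147.3, 155.1 and 149.1 CPM with nuclear and 174.7, 179.1 and 161.5 CPM with cytosolic IMPDH2, was 1.14-fold lower (adjusted p = 0.00159). In each of these 4 the groups did not overlap, although the gap was under 1.2-fold. RPA1, CDC45 and MCM5 were higher (0.13, 0.13 and 0.07) and ORC1, POLE2 and RPA2 lower (-0.16, -0.14 and -0.13). Of the 38 members not called, the 95% intervals reached no further than -0.26 (TIPIN) and 0.26 (POLD4). With an offset for average transcript length 0 higher and 0 lower members were called, although 883 of all genes were still higher and 975 lower. LIG1 then had -0.05 (adjusted p = 0.884), ORC6 -0.23 (0.104) and POLA1 0.19 (0.0713). With coding transcripts alone, ORC6 was at -0.07 (adjusted p = 0.612) and not called. Coding transcripts held 47.3% of the ORC6 count with nuclear and 41.2% with cytosolic IMPDH2.

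**Figure D5:**
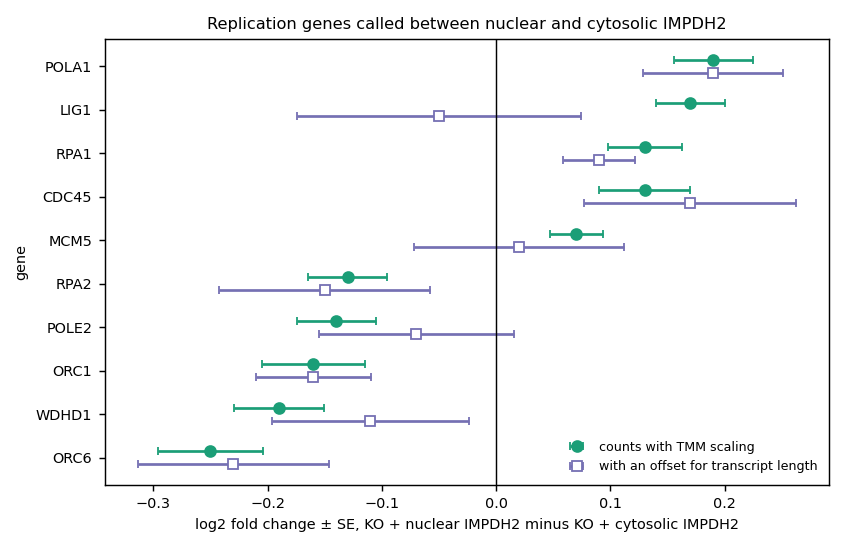
Log2 fold change ± SE of the 10 replication genes called between KO + nuclear IMPDH2 and KO + cytosolic IMPDH2 (3 libraries each), from counts with TMM scaling (filled circles) and with an added offset for average transcript length (open squares). Most offset values keep their side of 0 but have wider errors, and LIG1 crosses 0.

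Most of the reads of most members came from protein-coding transcripts. The median share of a member's count on transcripts annotated as protein coding was 94.7% in KO and 94.2% in WT. DBF4 had the lowest share: its leading transcript, DBF4-204, is annotated as a target of nonsense-mediated decay and held 65.8% of the gene's count, while coding transcripts held 5.9% ± 0.566 in KO and 4.07% ± 0.794 in WT (SD, n = 3 each). The fold changes of DBF4 thus rest mainly on a transcript not annotated as coding. The share of ORC6 on coding transcripts was 39.1% ± 3.71 in KO and 58.1% ± 8.95 in WT. For LIG1 it was 46.4% ± 2.31 in KO and 55.8% ± 2.68 in WT. POLA2 was at 74.1% ± 7.46 in KO and 83.8% ± 1.71 in WT, and CDC45 went the other way, at 89.5% ± 3.92 in KO and 82.6% ± 3.08 in WT. In a two-sided exact permutation test on each of the 48, 9 gave p = 0.1, the smallest value that 3 against 3 libraries allow: the coding share was lower in KO for ORC6, LIG1, POLA2, RFC5 and GMNN and higher for CDC45, RFC1, DBF4 and PRIM2. No such difference can pass 0.05 in this design.

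Genes that work beside the 48 were likewise mostly lower in KO. Of 40 further replication genes, among them clamp unloaders, origin-firing factors and chromatin assembly factors, 28 were lower and 7 higher in KO than in WT, at a median log2 fold change of -0.42. Over all genes 36.8% were lower and 35.9% higher. With guanosine 33 of the 40 were higher and 4 lower than in KO, at a median of 0.52, beside 27.3% and 29.2% of all genes. The furthest in KO were TOP2A, the topoisomerase that untangles sister DNA, at 286.7 ± 10.3 CPM in KO and 804.2 ± 18.8 CPM in WT (-1.49), the histone chaperone ASF1A (-1.27), the helicase RECQL4, which acts at origin firing (-1.19), and the PCNA partner PCLAF (-1.18). Among 22 cell cycle genes given for context, 19 were lower and 3 higher in KO than in WT (median -0.68), and 20 were higher and 0 lower with guanosine than in KO (median 1.02), beside the same shares of all genes. The furthest of these were PLK1 (-2.14), MKI67, a marker of cycling cells (-1.86), AURKA (-1.76) and CCNA2, cyclin A (-1.69). MKI67 averaged 420.1 ± 16.7 CPM with guanosine, 138.6 ± 7.95 CPM in KO and 504.3 ± 16.7 CPM in WT. E2F1, an activator of S-phase genes, averaged 88 ± 3.14 CPM with guanosine, 52.8 ± 0.681 CPM in KO and 71.2 ± 1.71 CPM in WT. The 3 cell cycle genes higher in KO were CCNE1, cyclin E (9.46 CPM, against 6.56 CPM in WT), E2F3 and E2F8. E2F3 averaged 115.9 CPM in KO and 91.9 CPM in WT, and E2F8 21.9 CPM in KO and 18 CPM in WT. The part of cell cycle composition in the changes of the replication genes was not tested.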

How the data were processed

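Messenger RNA of 18 libraries was given as Salmon output. Per the file headers, the authors deposited for each transcript an expected (estimated) count, a TPM value and lengths, and a series table of the same estimated counts. Trim Galore 0.6.10, Salmon 1.10.0 and the build hg19 are named, per the submitters' processing notes. Positions here are GRCh38 from GENCODE 29 and promoters are RefSeq GRCh38.p14. Per the labels' protocols, libraries were TruSeq stranded mRNA. Of the deposited transcript values 32.5% were not whole, so estimated counts were summed to genes and rounded. The series table and the sample files differed by 0.0 at most.

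The members and gene lists were chosen with earlier results of these data known. Genes were filtered with filterByExpr and fitted in 1 edgeR 4.0.16 model (R 4.3.3) over all libraries with TMM scaling and 1 mean for each group, then tested by quasi-likelihood, with Benjamini-Hochberg adjustment over 19252 genes within each of 10 comparisons. Depth of 45865079 to 63276484 counts and a common biological coefficient of variation of 4.87% set the precision. The authors' TPM values were summed per gene for levels between genes. The fit was tested on simulated data, with changes placed in genes drawn from all those tested. It recovered 55.2%, 62.7% and 92.4% of the 67, 67 and 66 genes changed by 0.5, 1 and 2 on the log2 scale. Of its calls 3.45% were false. Far more genes were called in KO against WT in the data, so these rates need not hold there. DESeq2 1.42.0 and other settings were alternatives. Text names IMPDH2, the members with the largest change in each complex in KO against WT and in guanosine against KO, those called against the majority or not called, the 8 smallest adjusted p between nuclear and cytosolic IMPDH2, and the 3 furthest above and below WT in each group. Of the other lists, the 4 largest changes in KO against WT are named. E2F1, CCNE1 and the other members given with values were added for their roles, and E2F3 and E2F8 because they were higher in KO. In the labels' cell line field a number rises by 1 per sample, and the growth protocol's MDA-MB-231 was taken for all. Python 3.11.15 with pandas 2.3.3 joined the tables and matplotlib 3.10.9 drew the figures. Raw reads were not used here.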

Additional observations from a re-analysis of the deposited data

How the results depend on the processing

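The direction of the KO and guanosine results held under DESeq2 size factors, DESeq2's Wald test, no filter on low counts, a fit of the 2 groups alone, coding transcripts alone, a transcript length offset and each library left out in turn. With library totals, members higher in KO than in WT numbered 12, members lower than in KO numbered 5 with guanosine, 5 with nuclear and 4 with cytosolic IMPDH2, and 22 were above WT with unlocalised IMPDH2. Over all genes at that scaling 45.5% were higher in KO than in WT. The shares lower than in KO were 35.3%, 35.2% and 35.7% with guanosine, nuclear and cytosolic IMPDH2, and 37.6% were above WT with unlocalised IMPDH2. ORC5 (0.15), POLA1 (0.09), POLD2 (0.13), POLE2 (0.16) and RFC2 (0.11), not called in KO against WT with TMM, were then called higher, and POLD2 also with coding transcripts alone (0.10). Between nuclear and cytosolic IMPDH2 the members higher numbered 3 in a fit of the 2 groups alone, 3 with coding transcripts and 0 with the length offset, and those lower 0 with the offset, where LIG1 took the opposite sign (-0.05). Of all genes 11.5%, 12.3% and 4.59% were higher at these 3 settings, and 5.06% lower with the offset. The counts of members higher and lower ranged from 3 to 5 and from 4 to 8 when 1 library was left out. There were 3 higher without cytosolic replicate 2 (10.9% of all genes) and 8 lower without cytosolic replicate 3 (9.71% of all genes). With neighbouring genes subtracted, the members' median was -0.31 in KO against WT, and against WT it was 0.19 with guanosine, 0.03 with unlocalised IMPDH2, where the sign turned, and 0.11 with cytosolic IMPDH2. Of 1134 values of named members under these settings, 1112 kept their direction and side of the threshold; 15 calls were lost, 13 of them between nuclear and cytosolic IMPDH2, and RFC2 gained one in KO against WT with DESeq2 size factors (-0.06). The cause of these shifts was not tested.

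Replicate numbers did not pair the samples: same-numbered deviations correlated at -0.0961 to 0.0399 for KO and WT. With a replicate block, 7 members were higher and 36 lower in KO than in WT, beside 35.8% and 36.7% of all genes. With guanosine 42 were higher than in KO, beside 27.2% of all genes.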
